A study of Homo sapiens with 4 samples.

Results

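The syndecans and glypicans are the main families of cell-surface heparan sulfate proteoglycans, and their transcripts were compared here between BT549 cells with high and with low NRP2. The members were chosen by name, with earlier results of these data known. Of 10 human genes, the 4 syndecans (*SDC1* to *SDC4*) and the 6 glypicans (*GPC1* to *GPC6*), 9 had a row among the 31681 genes of the count table, and *GPC3* was not analysed here. BT549 is an established triple-negative breast cancer (TNBC) cell line. The cells were separated by flow cytometry on NRP2 into an NRP2-high and an NRP2-low population. No group had another treatment or genotype in the labels, and each group held 2 libraries of polyadenylated RNA. Whether the 2 libraries of a group were separate cultures is stated in neither labels nor methods. The p-values therefore rest on the spread among these samples alone, and that spread may be technical. All 4 libraries come from 1 cell line, and fewer cells that carry a transcript and less of it per cell cannot be told apart in bulk RNA.

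Syndecans span the membrane once and carry heparan sulfate chains on the outside, with a short tail inside the cell that binds adaptor proteins. Glypicans hold their chains close to the membrane, to which a glycosylphosphatidylinositol (GPI) anchor ties them. Through the sulfated chains, both families bind growth factors such as FGF and VEGF and present them to signaling receptors. Both also bind Wnt and matrix proteins, and enzymes can shed or clip them from the surface.

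The libraries summed to between 18165923 and 20585102 counts, and a library with 0 counts of a gene is taken to allow up to 3, or 0.151 to 0.163 CPM (counts scaled to the library size). *NRP2*, the transcript of the protein used for the sort, had 2588 and 2839 counts under the label NRP2-high and 195 and 166 under the label NRP2-low, so that the labels and the transcript pointed the same way. Of 5 mesenchymal genes listed, *FN1* was higher in NRP2-high cells (3941 and 4091 against 1108 and 1124 CPM), *CDH2* and *CD44* were lower (log2 fold changes of -0.59 and -0.73), and *VIM* (23658 to 27183 counts per library) and *ZEB1* did not pass. Of 5 epithelial genes listed, *KRT19* was higher (205 and 266 against 6 and 7 counts), *KRT8* and *KRT18* were lower (7 and 6 against 50 and 43, and 8 and 5 against 73 and 69 counts), and *EPCAM* and *CDH1* had at most 5 counts in a library and were not tested. Genes encoded by the mitochondrial genome took 6.92% and 9.16% of the counts in the NRP2-high libraries and 5.57% and 5.85% in the NRP2-low libraries. The NRP2-high pair also differed more than the NRP2-low pair: the chi-square of the counts over its degrees of freedom was 10.4 in NRP2-high cells and 1.60 in NRP2-low cells. In the NRP2-high library 2, which had the larger mitochondrial share, the CPM of *SDC1*, *SDC3*, *SDC4*, *GPC1* and *GPC2* were 0.665 to 0.877 times those of library 1, and those of *SDC2* and *GPC6* were 1.05 and 1.02 times. The part of the mitochondrial share in these ratios was not tested.

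**Figure D1:**
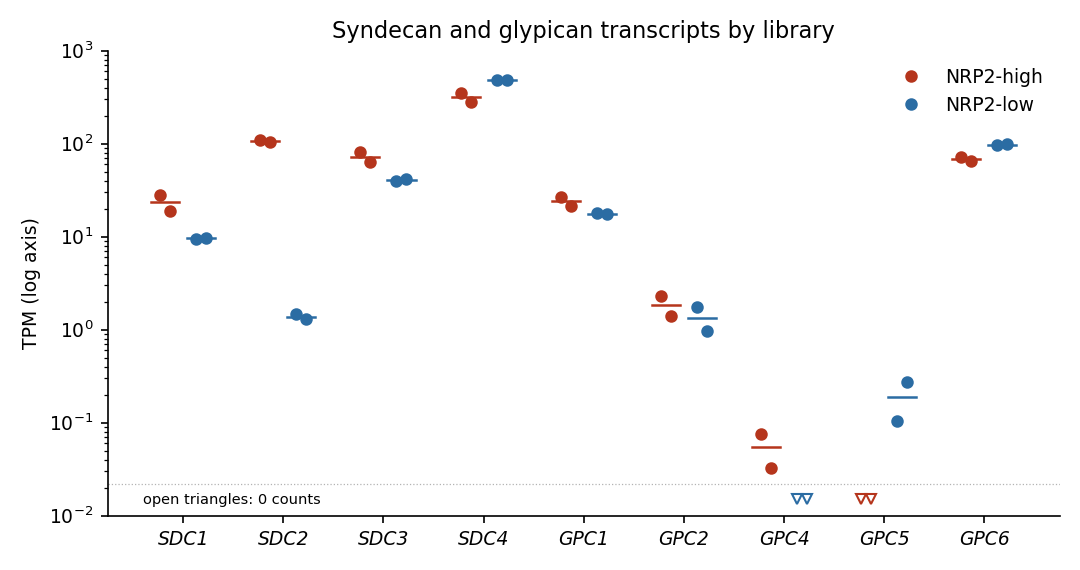
TPM (transcript level scaled for gene length and library size, log axis) of each member in each library, with NRP2-high libraries in red, NRP2-low libraries in blue, and a line at each mean of 2 libraries. *SDC2* moved from 1.47 and 1.29 TPM in NRP2-low cells to 110.4 and 104 TPM in NRP2-high cells, and *SDC4* was the highest member in every library. Open triangles mark counts of 0.

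*SDC2* rose most among the members. The gene encodes syndecan 2, a syndecan typical of mesenchymal cells, and yielded 2644 and 2917 counts from NRP2-high cells but 36 and 30 from NRP2-low cells. After scaling with TMM (trimmed mean of M values) factors, the means were 147 ± 4.62 against 1.70 ± 0.151 CPM (SD, n = 2 each). The lowest NRP2-high library was therefore far above the highest NRP2-low library. On the log2 scale *SDC2* rose by 6.43 (standard error 0.10), an 86.1-fold difference. In the quasi-likelihood test of edgeR, adjusted by Benjamini-Hochberg over all tested genes, the adjusted p was 3.2e-11. Both NRP2-low libraries were above the limit of 3 counts, so the transcript was detected in them. Whether these counts came from NRP2-low cells or from NRP2-high cells carried over in the sort was not tested.

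*SDC1* and *SDC3* rose as well. *SDC1*, the syndecan of epithelial and plasma cells, had 530 and 424 counts against 186 and 177 in NRP2-low cells, or 25.4 ± 4.93 against 9.37 ± 0.0489 CPM (SD, n = 2 each). It rose by 1.43 in log2 units (standard error 0.14, edgeR adjusted p = 6.6e-06), and the groups did not overlap although the NRP2-high libraries lay apart from each other. The 5 epithelial genes summed to 12.1 and 14.4 CPM in NRP2-high cells and to 6.78 and 6.80 CPM in NRP2-low cells. Of these, *KRT19* alone stood at 11.2 and 13.7 against 0.301 and 0.372 CPM. *KRT8* and *KRT18* were lower in NRP2-high cells, and *EPCAM* and *CDH1* were too scarce to be tested. The part of these genes in the *SDC1* difference was not tested. *SDC3*, which encodes a syndecan best known from neurons and muscle precursors, had 3025 and 2768 counts against 1509 and 1505. At 154 ± 15.5 CPM against 77.9 ± 2.99 CPM (SD, n = 2 each), *SDC3* rose by 0.98 in log2 units (standard error 0.07, edgeR adjusted p = 8.3e-07).

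*SDC4* went the other way. It encodes the syndecan found at focal adhesions, where it acts together with integrins, and it yielded 4897 and 4521 counts in the high group and 6908 and 6448 in the low group. This was 249.8 ± 23.6 CPM in NRP2-high cells and 345 ± 2.91 CPM in NRP2-low cells (SD, n = 2 each). The log2 fold change was -0.46 (standard error 0.06, edgeR adjusted p = 8.8e-05), so that NRP2-low cells held 1.38 times the level of NRP2-high cells. The decrease was thus much smaller than the increase of *SDC2*, and it did not pass a test against a 1.5-fold change.

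Among the glypicans, *GPC6* and *GPC1* made up nearly all of the counts and moved in opposite directions. *GPC6*, whose product takes part in growth-plate development, had 2438 and 2635 counts against 3391 and 3293 in NRP2-low cells, at 134 ± 2.27 against 173 ± 3.37 CPM (SD, n = 2 each). It fell by 0.36 on the log2 scale (standard error 0.05, edgeR adjusted p = 0.00012). *GPC1*, a glypican with a broad expression that is often raised in carcinomas, had 921 and 852 counts against 629 and 590. It rose from 31.5 ± 0.157 to 47.0 ± 4.37 CPM (SD, n = 2 each), a log2 fold change of 0.58 (standard error 0.08, edgeR adjusted p = 0.00012). Neither glypican passed the test against 1.5-fold, and the call of *GPC1* was lost in limma on log2 TPM (adjusted p = 0.062 with a pseudocount of 1 and 0.089 with a pseudocount of 0.1, within a range of 2.7e-18 to 0.79 over its alternatives).

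The other glypicans were scarce. *GPC2*, known from the developing nervous system, had 47 and 33 counts against 36 and 19 in NRP2-low cells, and the groups overlapped. Its log2 fold change of 0.58 (standard error 0.33) equalled that of *GPC1* but did not pass (edgeR adjusted p = 0.16). Leaving out each library in turn gave 0.23 to 1.06, and edgeR adjusted p-values from 0.018 (without NRP2-high library 2) to 0.66. *GPC5* was at 0 in both NRP2-high libraries and had 2 and 5 counts in NRP2-low cells, of which the first lies below the limit of 3 counts per library. *GPC4* had 2 and 1 counts against 0 in both NRP2-low libraries. From pooled counts, the 95% limits of its NRP2-low to NRP2-high ratio were 0 to 2.36, so no difference could be detected. For *GPC5*, with 0 pooled counts against 7 in NRP2-low cells, the lower limit of this ratio was 1.41. These limits cover counting error only. Both genes stood below the filter on low counts and were not tested.

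Of the 10 members, 7 were thus tested, with 4 higher, 2 lower and 1 not passing. Over all 15083 tested genes, 28.9% were higher, 27.7% lower and 56.5% in either class at an adjusted p under 0.05. A change of at least 2-fold was called for 2 members, *SDC1* and *SDC2*, and for 16.3% of all tested genes. The CPM of the groups did not overlap for 6 of the 7 tested members, against 78.2% of all tested genes. The median log2 fold change was 0.58 over the tested members and -0.01 over all tested genes.

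**Figure D2:**
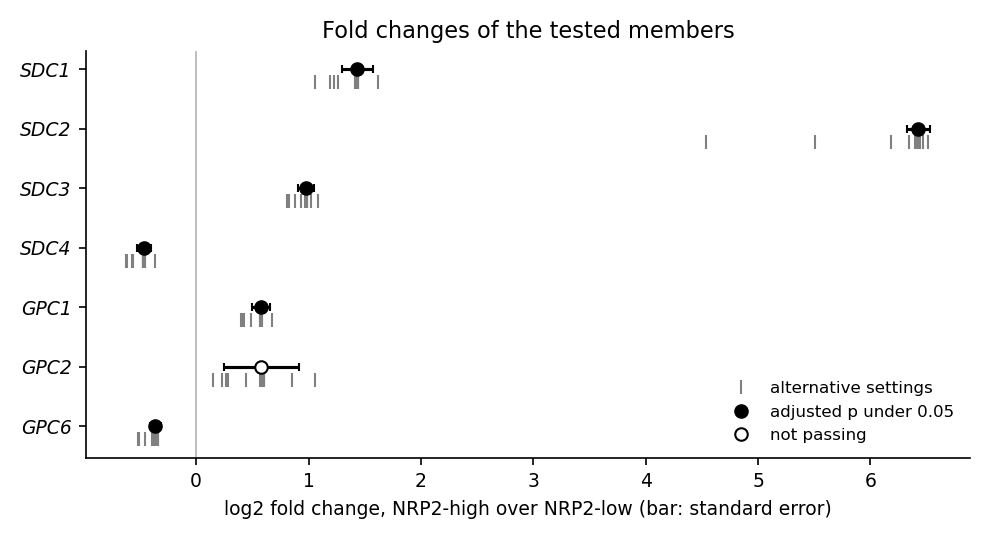
Log2 fold change of each tested member (NRP2-high over NRP2-low) with its standard error; filled points passed an adjusted p of 0.05 and the open point, *GPC2*, did not. Grey ticks give the same value under each alternative setting, and no tick lies across 0 from its point.

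The mix of syndecans changed more than their sum. In TPM, which corrects for gene length and so allows levels of different genes to be compared, the 4 syndecans summed to 574 and 466 in NRP2-high cells and to 538 and 534 in NRP2-low cells. Between the group means, the ratio was 0.971 in TPM and 1.07 in TMM-scaled CPM per kilobase, so its direction depended on the scaling. *SDC4* took 61.8% and 60.0% of the summed syndecan TPM in the NRP2-high libraries and 90.6% and 90.2% in the NRP2-low libraries. *SDC2* took 19.2% and 22.3% in NRP2-high cells against 0.272% and 0.242% in NRP2-low cells. *SDC3* held 13.9 ± 0.374% against 7.55 ± 0.327% and *SDC1* 4.48 ± 0.545% against 1.79 ± 0.0180% (SD, n = 2 each). Shares of the glypican TPM shifted less: *GPC6* took 72.7 ± 2.47% in NRP2-high and 83.6 ± 0.631% in NRP2-low cells, and *GPC1* took 25.3 ± 1.92% and 15.1 ± 0.257% (SD, n = 2 each). The exact two-sided permutation test over libraries gave p = 0.33 for each share, the smallest value that 2 against 2 libraries allow, so these shares are a description.

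**Figure D3:**
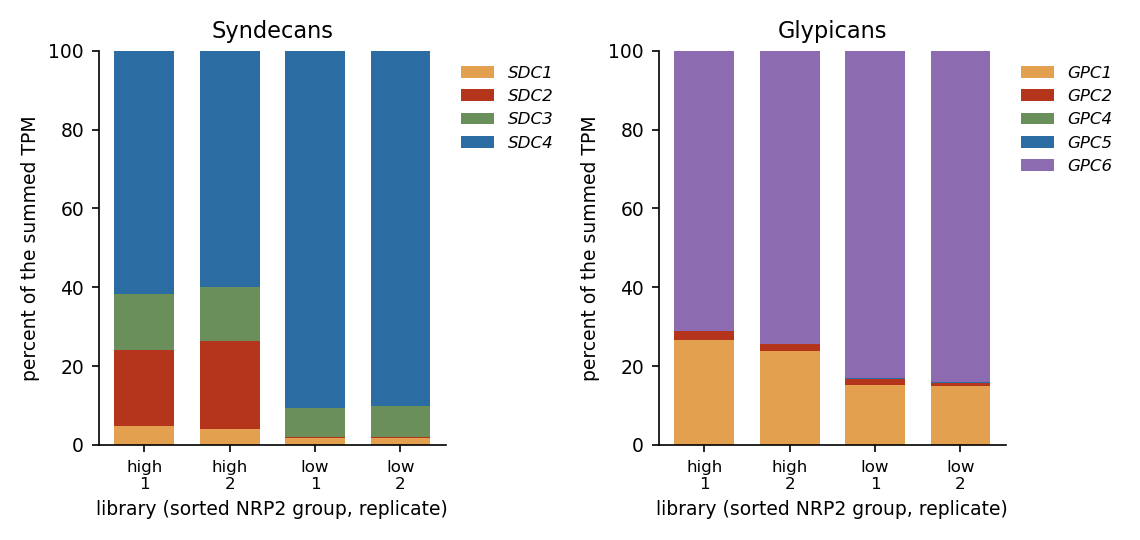
Percent of the summed TPM of the syndecans (left) and of the glypicans (right) taken by each gene in each of the 4 libraries; bars add up to the whole pool. The *SDC2* segment is 19.2% and 22.3% in NRP2-high cells and too thin to see in NRP2-low cells, where *SDC4* takes 90.6% and 90.2%.

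By level, *SDC4* led in both populations (317 ± 53.0 TPM in NRP2-high and 485 ± 4.67 TPM in NRP2-low cells, SD, n = 2 each). In NRP2-high cells *SDC2* came next at 107 ± 4.48 TPM, then *SDC3* at 72.2 ± 12.5 TPM and *GPC6* at 68.7 ± 3.87 TPM, with overlapping ranges for *SDC3* and *GPC6*. *GPC1* and *SDC1* followed at 24.0 ± 3.97 and 23.5 ± 6.25 TPM, also with overlapping ranges. In NRP2-low cells the order was *SDC4*, *GPC6* (98.1 ± 1.80 TPM), *SDC3* (40.5 ± 1.51 TPM), *GPC1* (17.7 ± 0.110 TPM) and *SDC1* (9.58 ± 0.0385 TPM). *SDC2* had dropped to 1.38 ± 0.124 TPM there, within the range of *GPC2* (1.35 ± 0.543 TPM). Thus the place of *SDC2* was 2 of 9 in NRP2-high cells and 6 of 9 in NRP2-low cells.

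In the genome (hg38, coordinates of the count table), the members lie on 7 chromosomes. *SDC2* spans 118 kb of the plus strand (chr8:96493351-96611780), *SDC1* 24.6 kb of the minus strand (chr2:20200797-20225433), *SDC3* 39.3 kb of the minus strand (chr1:30869467-30908761) and *SDC4* 23.1 kb of the minus strand (chr20:45325288-45348424). *GPC1* spans 31.1 kb of the plus strand (chr2:240435671-240466793). *GPC5* (chr13:91398607-92873682) and *GPC6* (chr13:93226842-94407401) follow each other on the plus strand of chromosome 13 as genes of 1475 and 1181 kb. *GPC2* (chr7:100169606-100177367, 7.76 kb) and *GPC4* (chrX:133300103-133415490, 115 kb) lie on the minus strand. Every syndecan has 5 exons in its MANE Select transcript in GENCODE v44, while *GPC1*, *GPC4* and *GPC6* have 9, *GPC2* has 10 and *GPC5* has 8. Genes that overlap a member in the table were nearly silent. The antisense genes *GPC6-AS1* and *GPC6-AS2* had at most 1 count in a library, and *AL354811.1*, antisense to the start of *GPC6*, had 6 to 11 counts. The library kit marks strand, but the strand setting of the counting is not stated, so these reads may not be told apart from those of *GPC6*.

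The gene next to *SDC2* rose with it. *CPQ*, which encodes a plasma carboxypeptidase and starts 152 kb after the start of *SDC2*, had 370 and 351 counts against 20 and 18. It rose by 4.27 in log2 units (standard error 0.17, edgeR adjusted p = 7.0e-09). On the other side, *PTDSS1*, which encodes a phosphatidylserine synthase, starts 232 kb before *SDC2* and rose by 0.54 in log2 units (standard error 0.05, edgeR adjusted p = 3.4e-06). Within 2000 kb of the start of *SDC2*, a window added after these neighbours were seen, 23 other genes were tested, of which 12 were higher and 6 were lower, with a median log2 fold change of 0.24, against 28.9% higher and 27.7% lower of all tested genes. A change of at least 2-fold was called for 7 of the 23, against 16.3% of all tested genes. Windows of the same width around *SDC3* (35 genes, 3 higher, 15 lower) and *SDC4* (47 genes, 9 higher, 17 lower) held 7 such genes each, among more tested genes. Those around *GPC1*, *SDC1*, *GPC2* and *GPC6* held 2 of 25, 1 of 10, 4 of 71 and 0 of 4. Next after *CPQ* came *TSPYL5*, named after its values were seen, with a log2 fold change of 2.86, and genes farther out went both ways, from -2.64 for *KCNS2* upward. The nearest tested genes beside *SDC1*, *GPC1*, *SDC4* and *GPC6* went with or against them. *LAPTM4A* (-0.18) and *PUM2* (-0.16) were lower beside *SDC1*, and *COPS9* (-0.51) and *ANKMY1* (-0.53) were lower beside *GPC1*, although *SDC1* and *GPC1* rose. *SYS1* (-0.38) and *TGDS* (-0.45) were lower beside *SDC4* and *GPC6*, which fell, while *KCNS1* (0.77) was higher on the other side of *SDC4*. *MIR17HG* (-0.62, beside *GPC6*) did not pass.

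**Figure D4:**
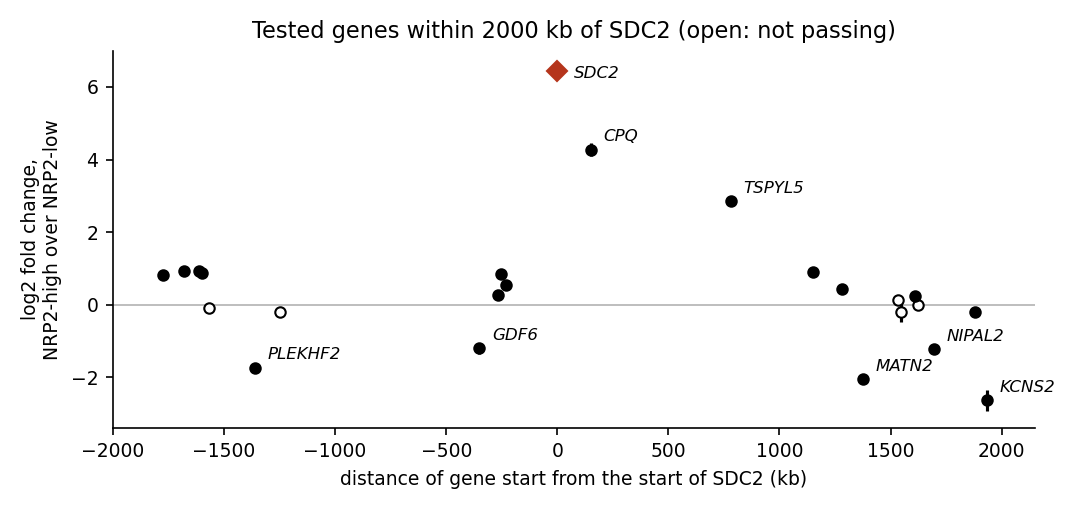
Log2 fold change (with standard error) of the tested genes whose starts lie within 2000 kb of the start of *SDC2*, plotted by distance in kb; filled points passed an adjusted p of 0.05. *SDC2* (red, 6.43), *CPQ* (4.27) and *TSPYL5* (2.86) stand above the other genes of the window, which lie between -2.64 and 0.94.

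The sequence before the start site differs between the called members that were matched. Of these windows, 4 are shown because they hold a pair of genes that rose (*SDC1*, *SDC3*) and a pair that fell (*SDC4*, *GPC6*). They are the 250 bases before the start in RefSeq (GRCh38.p14), read 5′ to 3′ on the gene's strand. There 8 of the 10 members were matched. *SDC2* and *GPC3* were not, so the sequence before *SDC2* was not examined. Capitals mark matches on either strand to the GC box GGGCGG and to the TATA box TATAAA.
*SDC1* (chr2:20225476-20225725, minus strand): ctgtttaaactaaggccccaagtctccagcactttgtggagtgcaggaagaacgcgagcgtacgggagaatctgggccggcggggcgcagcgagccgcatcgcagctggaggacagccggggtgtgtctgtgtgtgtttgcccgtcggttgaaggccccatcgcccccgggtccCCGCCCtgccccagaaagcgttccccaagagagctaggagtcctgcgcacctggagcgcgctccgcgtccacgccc
*SDC3* (chr1:30908759-30909008, minus strand): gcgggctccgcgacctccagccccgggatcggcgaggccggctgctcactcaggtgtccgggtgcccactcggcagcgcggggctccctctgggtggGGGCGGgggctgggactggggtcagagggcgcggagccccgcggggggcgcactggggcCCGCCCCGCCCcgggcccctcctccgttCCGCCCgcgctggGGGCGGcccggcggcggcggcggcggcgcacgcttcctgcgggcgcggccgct
*SDC4* (chr20:45348425-45348674, minus strand): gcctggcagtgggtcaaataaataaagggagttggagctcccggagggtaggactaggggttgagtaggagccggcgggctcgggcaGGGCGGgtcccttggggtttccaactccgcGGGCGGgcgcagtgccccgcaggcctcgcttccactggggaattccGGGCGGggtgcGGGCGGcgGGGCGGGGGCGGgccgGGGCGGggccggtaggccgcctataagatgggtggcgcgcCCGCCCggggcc
*GPC6* (chr13:93226557-93226806, plus strand): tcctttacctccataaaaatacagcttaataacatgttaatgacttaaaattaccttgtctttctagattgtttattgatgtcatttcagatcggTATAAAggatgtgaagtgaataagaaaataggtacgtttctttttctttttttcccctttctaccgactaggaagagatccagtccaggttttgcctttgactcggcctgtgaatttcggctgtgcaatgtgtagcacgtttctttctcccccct
*SDC3* had 5 GC boxes, *SDC4* had 8 and *SDC1* had 1, overlapping matches counted separately, and *GPC1* had 4. *GPC6* had none, but it had a TATA box starting 155 bases before the start site. A GC box was found in 42.6% of all 35116 RefSeq windows of that length and a TATA box in 10.7%. The GC content was 83.6% for *SDC3*, 73.6% for *SDC4*, 66.4% for the *SDC1* window shown (75.2% for that of a second *SDC1* start) and 37.6% for *GPC6*, against a median of 58.0% over all windows. No match to the GLI site GACCACCCA or the AP-1 site TGANTCA was found in the windows of the matched members, and these letters occur in 0.199% and 6.57% of all windows. GC boxes were present before *SDC1*, *SDC3* and *GPC1*, which rose, and before *SDC4*, which fell, but not before *GPC6*, which also fell. Any link of these boxes to the direction of change was not tested.

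The enzymes that build the chains on these core proteins were mostly higher in NRP2-high cells. Among 72 tested genes of the 11 lists on heparan sulfate and its partners, 43 were higher, 11 lower and 18 did not pass, and the median log2 fold change was 0.32, against 28.9% higher and 27.7% lower of all tested genes. In log2 TPM, where the median of all tested genes moved to -0.14, 27 were higher and 12 lower. In the linkage region list, 4 of 7 genes were higher and 3 did not pass. *XYLT1*, one of the xylosyltransferases that place the first sugar on the core protein, had 129 and 123 counts against 8 and 1. It rose by 4.81 in log2 units (standard error 0.38, edgeR adjusted p = 1.4e-06). Leaving out each library in turn gave 4.03 to 6.80, and log2 FPKM with a pseudocount of 1 gave 0.63. The other xylosyltransferase gene, *XYLT2*, named after its values were seen, did not pass (270 and 236 against 248 and 236 counts, log2 fold change 0.10). Its mean level was 8.16 TPM in NRP2-high and 8.39 TPM in NRP2-low cells, above that of *XYLT1* (2.01 and 0.0760 TPM). Of 5 genes of chain polymerization, 4 were higher and 1 lower. The polymerase subunits *EXT1* and *EXT2*, named after their values were seen, had log2 fold changes of 0.40 and 0.32, while *EXTL1*, a related glycosyltransferase gene, had 1 and 2 counts against 18 and 20 and a log2 fold change of -3.52.

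Genes that modify the chains followed the same direction, while those that supply donors went both ways. Of 8 tested genes that modify the chains, 6 were higher and 2 did not pass, and 8 of the 16 listed were below the filter or had no row. *HS6ST3*, which encodes a 6-O-sulfotransferase, had 673 and 648 counts against 14 and 21. No library of one group came near the other, and the log2 fold change was 5.27 (standard error 0.17, edgeR adjusted p = 1.3e-09). *HS3ST3A1*, a 3-O-sulfotransferase gene, rose by 1.28 on the log2 scale (213 and 262 against 97 and 103 counts). Another such gene, *HS3ST3B1*, named after its values were seen, did not pass (849 and 879 against 905 and 862 counts, log2 fold change 0.005). In NRP2-high cells *HS3ST3B1* had the higher mean level (28.2 TPM, against 15.7 TPM for *HS3ST3A1*). Of 9 genes that supply sugar and sulfate donors, 4 were higher, 3 lower and 2 not passing, with *SLC35D1*, a nucleotide-sugar transporter gene, at 1.27. The 3 lower genes, named after their values were seen, were *UGDH* (-0.30), *SLC35D2* (-0.60) and *PAPSS1* (-0.34). Of the genes for editing outside the cell, *SULF2*, a 6-O-endosulfatase gene, had 29 and 16 counts against 7 and 10 and a log2 fold change of 1.43 (standard error 0.45, edgeR adjusted p = 0.020). This call was lost in 8 of 15 alternatives, among them DESeq2 (adjusted p = 0.15, in a range of 0.00099 to 0.22 over the alternatives), and without NRP2-high library 1 (0.91) or NRP2-low library 1 (1.15). The heparanase gene *HPSE* did not pass, with a log2 fold change of 0.11.

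Genes that process the core proteins changed strongly. Of 8 tested genes of shedding and convertase processing, 6 were higher, 1 lower and 1 not passing. Calls in either direction were 87.5% of this list, against 56.5% of all tested genes. The matrix metalloproteases *MMP2* and *MMP14*, both known to cleave syndecans, had log2 fold changes of 4.17 and 2.07, and *FURIN*, whose product clips glypicans, had 1.10. *TIMP3*, which encodes an inhibitor of such proteases, rose with them (176 and 191 against 11 and 7 counts, log2 fold change 4.37). *MMP9* had 3 and 2 counts against 24 and 29, a log2 fold change of -3.31. Of the 9 genes listed as cytoplasmic partners of syndecans, 4 were higher and 5 did not pass. Calls were 44.4% of this list, below the 56.5% of all tested genes. *CASK* alone among the 9 had a call of at least 2-fold (1620 and 1770 against 741 and 757 counts, log2 fold change 1.21). Its product binds the end of the syndecan tail through a PDZ domain. Among the 5 genes of the GPI transamidase, which attaches glypicans to their anchor, *PIGK* and *GPAA1* were higher (0.70 and 0.62) and 3 did not pass. Calls were 40% of this list, also below the share over all tested genes.

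Other proteoglycans and the partners of the chains moved in both directions. Of 5 other heparan sulfate proteoglycan genes, 3 were higher and 2 lower. *HSPG2*, which encodes the basement membrane proteoglycan perlecan, had 357 and 245 counts against 99 and 88 (log2 fold change 1.73), and *AGRN*, which encodes agrin, had 118 and 118 against 548 and 484 (log2 fold change -2.09). Of 7 tested heparin-binding ligands, 4 were higher and 3 lower. *PTN*, which encodes the syndecan ligand pleiotrophin, had 46 and 60 counts against 2 in each NRP2-low library, with a log2 fold change of 4.68 (standard error 0.44, edgeR adjusted p = 5.0e-06). *FGF1* and *HBEGF*, which encode heparin-binding growth factors, had log2 fold changes of -1.34 and -1.22. Of 7 receptors, 5 were higher, 1 lower and 1 not passing, among them the HGF receptor gene *MET* (15278 and 16384 against 6213 and 5907 counts, log2 fold change 1.42) and *FGFR2* (36 and 45 against 15 and 8 counts, log2 fold change 1.84).

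**Figure D5:**
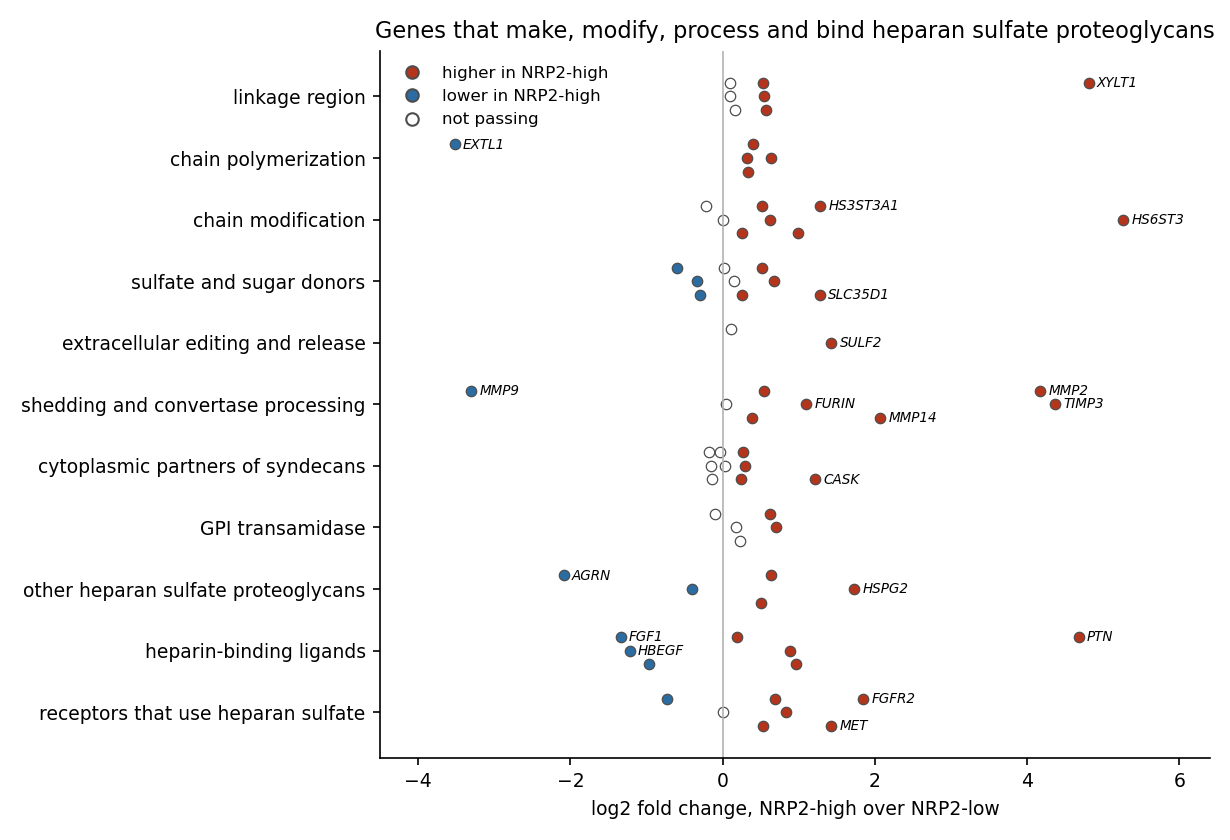
Log2 fold change (NRP2-high over NRP2-low) of the 72 tested partner genes by list, with genes that passed in red (higher) or blue (lower) and open points for those that did not pass. Genes past 2-fold are named; *HS6ST3* (5.27) and *XYLT1* (4.81) lie farthest to the right and *EXTL1* (-3.52) farthest to the left.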

How the data were processed

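RNA-Seq counts of 4 libraries from sorted BT549 cells were used, 2 NRP2-high and 2 NRP2-low. The authors aligned paired-end reads to hg38 with STAR, counted exon fragments per gene with featureCounts, and deposited raw counts. How the authors made the deposited TPM and the deposited FPKM values is not stated, but both are scaled for gene length and library size. The annotation release, the strand setting and the handling of reads that map to several places are not given in the sources used here.

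Members and gene lists were chosen with earlier results of these data known. Counts were filtered with filterByExpr, TMM-normalized and tested with edgeR 4.0.16 in R 4.3.3 (quasi-likelihood F test, no covariate, Benjamini-Hochberg adjustment over 15083 genes, threshold 0.05, common biological coefficient of variation 0.0502). CPM are counts per effective library size, and each standard error was computed as |log2 fold change| / sqrt(F). Library totals limit the precision, and limits from counts cover counting error only. From each list, every gene called at 2-fold or more was named, or else up to 2 with the smallest adjusted p. Alternatives were DESeq2 1.42.0, limma 3.58.1 (voom, and log2 TPM or FPKM), RLE factors, other filters and thresholds, fewer abundant genes, a replicate block and each library left out. Scripts were tested on simulated data. Promoter sequences came from RefSeq (GRCh38.p14). One neighbouring gene is not reported here.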

Additional observations from a re-analysis of the deposited data

How the results depend on the processing

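The members numbered 4 higher and 2 lower in edgeR and kept their direction in all 16 alternatives, and 4 higher and 2 lower was also the count in DESeq2, limma-voom, RLE factors and both filters on low counts. Against a 1.5-fold change, 3 members were higher and 0 lower, while 17 partner genes were higher and 6 lower. In log2 TPM, 3 members were higher with either pseudocount, and the partner genes higher numbered 27 with a pseudocount of 1 and 26 with 0.1. Higher genes were 51.0% of all calls from counts, but 36.0% and 36.8% in TPM and 40.5% in FPKM. Without 1 library at a time, every tested member kept its direction, and the log2 fold change of *GPC2* ran from 0.23 to 1.06. The *SDC2* log2 fold change was 6.34 to 6.51 with each library left out and ran from 4.53 to 6.51 over all alternatives, lowest in log2 FPKM with a pseudocount of 1, which shrinks the change of genes at low levels. Same-numbered libraries did not deviate together (correlation -0.01), so the numbers are not read as pairs. With the replicate number as a block, 4 members were higher and 2 lower, and 44 partner genes were higher and 13 lower. Of all 15083 tested genes, 4509 were higher and 4371 lower with the block. The block changed no member's call. Shares of the glypican and syndecan pools from raw counts differed from those in TPM by more than the spread between libraries for 8 values, since they are not corrected for length. Besides the calls given with *SULF2* and *GPC1*, those of *PIGK* and *GPAA1* were lost against 1.5-fold, that of *GPAA1* also in TPM and FPKM, and that of *HBEGF* in DESeq2 (adjusted p = 0.075). With a limit of 3 counts per library, these depths could not show a difference for *GPC4*. *GPC5* stood below the filter on low counts, and only counting error was considered for it.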
